A study of Xenopus laevis with 2 samples.

Results

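Transcripts of 5 secretory genes that mark skin, lung and exocrine pancreas were followed in heart libraries of the frog Xenopus laevis. The genes were itln1 and otog, which are skin markers, sftpc, a lung marker, and cela1 and ctrb1, which encode pancreatic digestive enzymes. They were chosen by name from earlier results of the same 2 libraries because all of them were lower after tcf21 morpholino injection. Each had 1 row, so the set held 5 of the 8879 transcripts listed. The fold differences of the 5 genes are therefore descriptions of how they were chosen and carry no test.

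The libraries came from sibling embryos that received either a control morpholino (control-MO) or a morpholino directed at tcf21 (Tcf21-MO). Morpholinos are synthetic antisense molecules used to block the translation or splicing of an RNA, and Tcf21 is a transcription factor of the epicardium, the outer cell layer of the heart. Injection was done at fertilization, embryos were kept at 16 to 23 °C, and hearts were taken by dissection at stage 44 to 45. Each group was 1 library of polyadenylated RNA from a pool of 70 to 100 hearts, so no difference has a replicate check, no p-value was computed, and every ratio compares these libraries, not the conditions. Intervals are 95% intervals for counting error only. Depth was 17636925 reads in the control-MO and 17767221 in the Tcf21-MO library. The targeted transcript tcf21 was counted 1266 times in control-MO and 3738 times in Tcf21-MO hearts, 3.01-fold higher (2.82 to 3.21), and since a morpholino need not lower its target RNA this level does not check the labels. Heart muscle transcripts were abundant in both, with myh6, a cardiac myosin heavy chain, at 36808 and 23052 scaled counts (CPM, counts per 1e6 reads of the TMM-scaled library). Of 12 heart genes measured, 0 were 2-fold higher or lower, and their median log2 ratio was -0.34.

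The proteins made by these genes leave the cell. Intelectin-1, the product of itln1, is a lectin that binds microbial sugars. In Xenopus embryos it is secreted by mucous cells of the epidermis, and in humans intelectin-1 (omentin) is also made by mesothelial cells and in epicardial fat. Otogelin-like proteins are large gel-forming relatives of mucins, and in Xenopus tropicalis one of them is a main component of tadpole skin mucus. Surfactant protein C, encoded by sftpc, is a small hydrophobic peptide that, in mammals, lowers surface tension in lung alveoli. Chymotrypsin-like elastase (cela1) and chymotrypsinogen B (ctrb1) are serine proteases that acinar cells of the pancreas store as inactive precursors and release into the gut. In humans, however, the cela1 ortholog has been found in skin and not in the pancreas.

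The skin gene itln1 was counted 1822 times in control-MO hearts and 138 times in Tcf21-MO hearts, at 102 and 7.87 CPM. That is 13.0-fold lower (10.9 to 15.5), the 4th lowest log2 ratio among the 8132 transcripts whose reads summed to 20 or more. The row listed as otog, which a current name table calls otogl2, had 2690 and 1079 reads, or 151 and 61.5 CPM, and was 2.45-fold lower (2.28 to 2.63). In that name table otog is a separate gene, which had no row here, so otog below means the listed row. Both skin transcripts were low in the same library, but the size of the difference was unequal and their counting intervals did not overlap. In these bulk samples, fewer cells of a type and less RNA per cell cannot be told apart. Genes are called here by the tissue they mark, and which cells made their reads in these hearts was not tested.

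For sftpc, 112 reads were counted in control-MO hearts and 32 in Tcf21-MO hearts, or 6.27 and 1.82 CPM, which is 3.44-fold lower (2.30 to 5.26). The elastase transcript cela1 had 56 and 17 reads, or 3.13 and 0.969 CPM, and was 3.23-fold lower (1.85 to 5.94). The chymotrypsinogen transcript ctrb1 had 122 and 51 reads, or 6.83 and 2.91 CPM, and was 2.35-fold lower (1.68 to 3.32). The intervals of these 3 overlapped each other, so their fold differences could not be ordered at this depth, and none reached that of itln1. All 5 genes had enough reads to be compared, and in 4 of them both libraries held at least 20 reads, the exception being cela1. All 5 were at least 2-fold lower with an interval that excluded a ratio of 1, where 2.40% of the 8132 transcripts past 20 reads met that rule and 2.67% met it in the higher direction. The members were selected on this contrast, so nothing is read from their count.

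**Figure D1:**
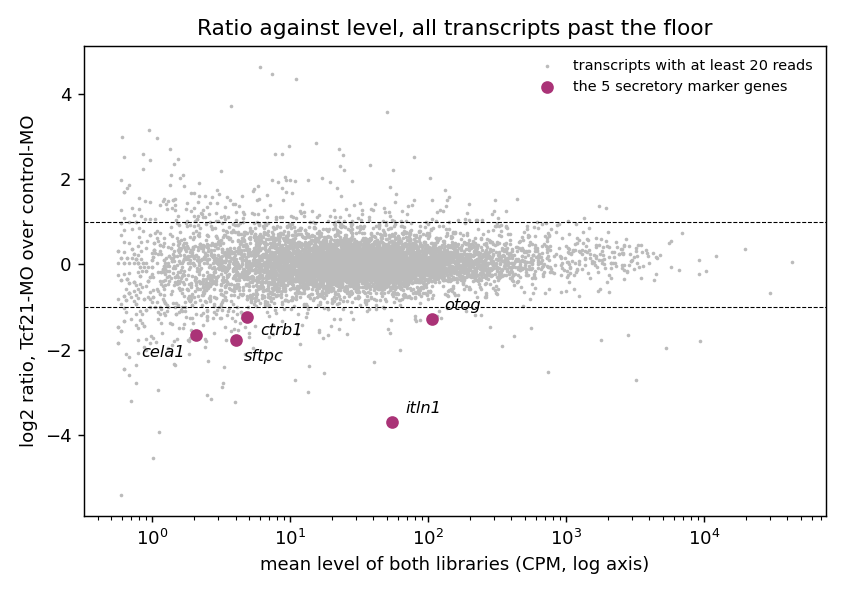
Log2 ratio of Tcf21-MO over control-MO (vertical axis) against the mean level of both libraries in CPM (horizontal log axis) for the 8132 transcripts with at least 20 reads, shown as grey points, with the 5 secretory genes as large points. Dashed lines mark 2-fold, and itln1 lies at -3.69, far under the other 4 genes, which lie between -1.77 and -1.22.

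Levels of different genes were compared per length, as CPM per kilobase of listed transcript (RPKM). In control-MO hearts itln1 stood at 88.1 RPKM (84.1 to 92.2), rank 897 of 8879 transcripts. The mucin-like otog followed at 18 (17.3 to 18.7), then sftpc at 5.95 (4.90 to 7.16), ctrb1 at 4.02 (3.34 to 4.80) and cela1 at 3.27 RPKM (2.47 to 4.25). The first 3 were separated by their intervals, while cela1 and ctrb1 overlapped. The median transcript past 20 reads stood at 13.4 RPKM, so the control-MO levels of the skin genes were above it and those of the lung and pancreas genes below it.

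In Tcf21-MO hearts the order among the skin genes was no longer resolved, with otog at 7.34 RPKM (6.91 to 7.79) and itln1 at 6.79 (5.71 to 8.03), rank 5605. Lower down, sftpc at 1.73 (1.19 to 2.45), ctrb1 at 1.71 (1.27 to 2.25) and cela1 at 1.01 RPKM (0.589 to 1.62) overlapped each other. The RPKM level of itln1 was thus 4.90 times that of otog in the control-MO library and 0.926 times in the Tcf21-MO library. Scaling between libraries cannot alter these values. They restate the unequal fold differences of genes chosen on this contrast, so they are no separate support. Together the 5 genes took 0.0272% of control-MO reads and 0.00741% of Tcf21-MO reads.

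**Figure D2:**
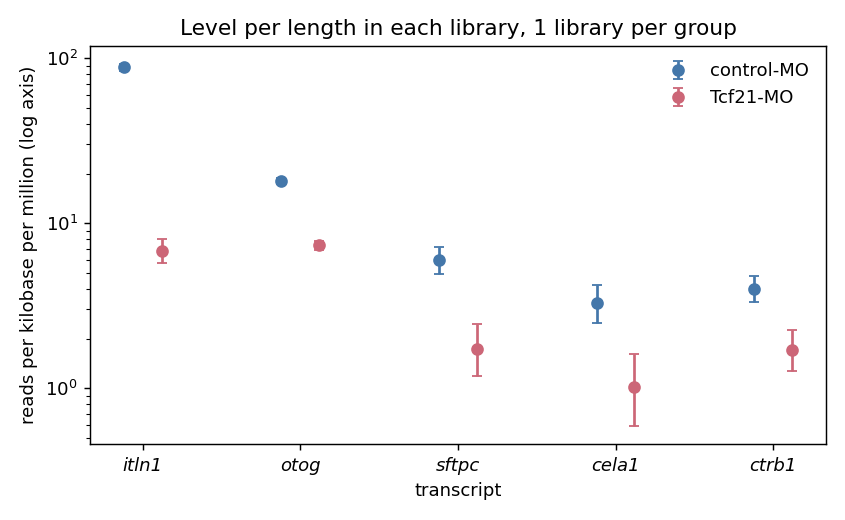
Level of each gene in RPKM (vertical log axis) in the control-MO and Tcf21-MO libraries, 1 library per group, with 95% counting intervals as bars. For each gene the Tcf21-MO point lies below the control-MO point, and itln1 moves from the highest level, 88.1, to 6.79, beside otog at 7.34.

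Other genes of skin secretory cells past the floor had ratios in both directions. This list, like all others here, was drawn up with earlier results of these libraries known. For every list, the shares over all transcripts past the floor were 2.40% lower and 2.67% higher. Of 19 genes listed, 13 had a row and 11 passed 20 reads. Without itln1 and otog, 0 of the remaining 9 were 2-fold higher or lower by the row with the most reads, and their median log2 ratio was -0.08, beside 0.00 over all transcripts past the floor. With both included, 2 of the 11 were lower, and 3 genes were lower when the rows of a gene were summed or the libraries were scaled to the total count. The added gene was not the same: foxa1 with summed rows and agr3 with total count scaling. The related lectin itln2 had 44 and 63 reads and a ratio of 1.46 (0.977 to 2.19), opposite in direction to itln1, with an interval that included 1. The protein disulfide isomerase family genes agr2 and agr3, which mark mucus-secreting tissue such as the cement gland, had 384 and 260 reads and 251 and 126 reads. They were 1.45-fold (1.24 to 1.7) and 1.96-fold (1.57 to 2.44) lower. The name table calls the agr3 row ag1.

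Transcription factors of epidermal cell types were counted at low levels. The ionocyte factor gene foxi1 (162 and 99 reads) was 1.61-fold lower (1.24 to 2.08), whereas the proton pump subunit gene atp6v1b1, also of ionocytes, had 425 and 584 reads and a ratio of 1.40 (1.23 to 1.59). The forkhead gene foxa1, a marker of small secretory cells, had 2 homeologous rows. The S row had 15 and 9 reads, and the L row, with 19 and 4 reads, stood 4.66-fold lower (1.55 to 18.9). Homeologs are the paired copies of a gene on the L and S subgenomes of Xenopus laevis. The L row passed the 2-fold rule, while the S row, which has more reads in all, stood for the gene in the count above. The remaining measured genes of the list were pcdh8, ca12, dmrt2, tff1 and tff2. For pcdh8 the larger row had 245 and 228 reads, and the other, pcdh8.2, had 196 and 154 and was 1.25-fold lower (1.01 to 1.55). Reads were 13 and 15 for ca12 and 15 and 23 for dmrt2. The larger tff1 row had 5 and 13 reads (a ratio of 2.65, 0.886 to 9.49) and the other 3 and 0, while tff2 had no read in either library. The name table lists the tff1 and tff2 rows as copies of tff3.

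General epidermal transcripts mostly differed by less than 2-fold. Over 15 epidermal genes past 20 reads, 2 were 2-fold lower and 0 higher, with a median log2 ratio of -0.34. Of these 15 genes, 11 had a log2 ratio below 0. The larval keratin krt12 was 1.32-fold lower (1.28 to 1.36) from 8333 and 6196 reads, the epithelial adhesion gene epcam had 496 and 509 reads and a ratio of 1.05 (0.922 to 1.19), and the desmosome gene pkp3 had a ratio of 1.29 (1.20 to 1.40). The genes past the 2-fold rule were the splicing regulator esrp1, at 2.34-fold lower (1.91 to 2.88), and the epidermal transcription factor gene grhl3, at 2.06-fold lower (1.40 to 3.07). Just short of it, grhl1 was 1.96-fold lower (1.49 to 2.6) and tfap2a 1.87-fold lower (1.08 to 3.34). In the other direction, cldn4 and krt15 had ratios of 1.16 (1.02 to 1.31) and 1.17 (1.08 to 1.26). Scaled to the total count, 3 epidermal genes were 2-fold lower. The keratin row xk81a1, outside this list though the name table calls it a krt12 copy, was 2.85-fold lower (2.56 to 3.17). Reads of itln1 per epcam read were 3.67 in the control-MO library and 0.271 in the Tcf21-MO library. Per krt12 read they were 0.219 and 0.0223. Since itln1 was chosen as lower, these falls come with the choice and nothing is read from them. Over all rows of the epidermal list the summed level was 755 CPM in control-MO and 652 CPM in Tcf21-MO hearts. The part of skin tissue in the itln1 and otog values was not tested.

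Lung genes other than sftpc gave no common direction. Of 15 listed, 7 had a row and 5 passed 20 reads, with a median log2 ratio of 0.03, or 0.10 without sftpc. Of the 4 other than sftpc, 1 was 2-fold higher and 0 lower. The surfactant gene sftpb, whose product is the partner of surfactant protein C in the surfactant film, had 14 reads in each library and a ratio of 1.02 (0.450 to 2.30). The lung and thyroid factor nkx2-1 had 0 and 1 read. For a count of 0 a fixed bound of 3 reads was used, which is 0.168 CPM in the control-MO library. The protease gene napsa, which in mammals processes surfactant precursors, had 42 and 107 reads and was 2.59-fold higher (1.80 to 3.80), against the direction of sftpc. The transcription factor genes foxp2 and id2, which many tissues express, had 282 and 311 and 2126 and 1698 reads, and the phosphate carrier slc34a2 had 2 and 0 reads in one row and 1 in each library in the other. Reads of sftpc per foxp2 read were 0.397 in the control-MO and 0.103 in the Tcf21-MO library. Since sftpc was chosen as lower, this fall comes with the choice and nothing is read from it.

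**Figure D3:**
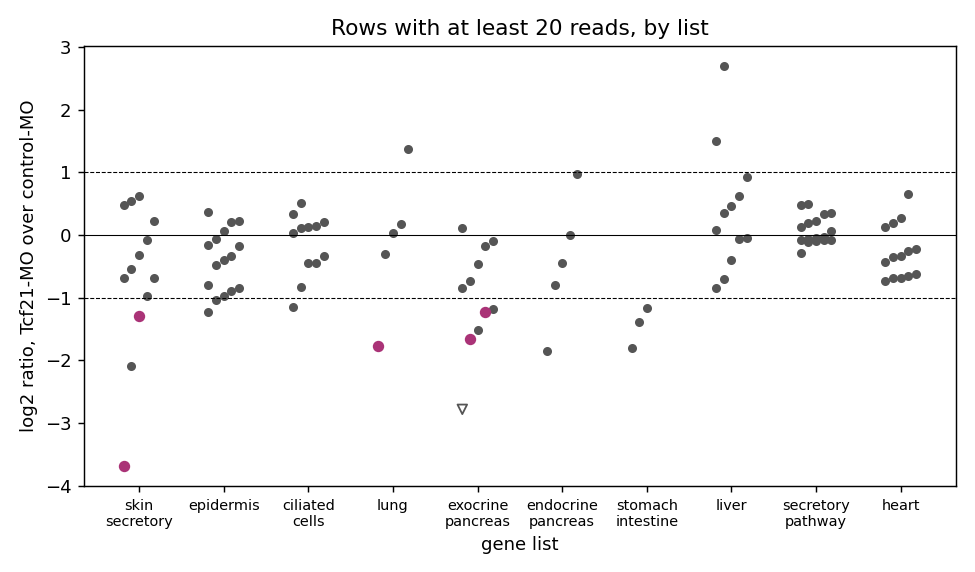
Log2 ratio of Tcf21-MO over control-MO for each row with at least 20 reads, by gene list, with dashed lines at 2-fold, large points for the 5 secretory genes, and an open triangle at the bound for amy2b, which had no Tcf21-MO read. Rows of the exocrine pancreas list and of the short stomach and intestine list lie mostly below 0, while the secretory pathway list runs from -0.29 to 0.50.

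Digestive enzyme transcripts of the exocrine pancreas were lower for some enzymes and close to equal for others. Of 31 genes listed, 21 had a row. Among these 21 rows, 13 had fewer reads in the Tcf21-MO library, 4 had more and 4 had none in either. The 13 include cela1 and ctrb1, which were chosen as lower, and 6 of the 21 rows had reads but fewer than 20. In the 11 genes past 20 reads, 5 were 2-fold lower and 0 higher, and the median log2 ratio was -0.85, also with amy2b at its bound. Over all transcripts past the floor, 2.40% were lower and 2.67% higher. Without cela1 and ctrb1, 3 of 9 were 2-fold lower and the median was -0.74. The floor admits a gene through the library in which it is high, so these counts describe the genes that passed it.

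Some relatives of the 2 chosen proteases, ctrl and ctrc, also passed the 2-fold rule, whereas cela2a did not and ctrb2 and cela3b had no read. The chymotrypsin-like protease gene ctrl (103 and 35 reads) stood 2.89-fold lower (1.95 to 4.37), and chymotrypsin C, ctrc, (56 and 24 reads) stood 2.29-fold lower (1.40 to 3.87). Pancreatic elastase cela2a, with 28 and 15 reads, was 1.83-fold lower with an interval that reached 1 (0.946 to 3.69). The values of ctrb1, at 2.35-fold, and ctrc, at 2.29-fold, lay on either side of the choice of genes and were close. Outside the proteases, the starch-digesting amylase amy2b had 21 and 0 reads and was at least 6.87-fold lower against a floor of 3 reads in the Tcf21-MO library, a bound that leaves out the counting error of the control-MO reads. The low end of its counting interval was 5.11-fold. For amy2a, with 8 and 0 reads, the same values were at least 2.62-fold and 1.68-fold. Carboxypeptidase B, cpb1, had 18 and 1 reads, a ratio of 0.0566 (0.00136 to 0.358), and the lipase gene cel had 8 and 2 reads.

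Trypsinogen did not share this difference. The row prss2 had 270 and 248 reads, the most of the listed pancreatic enzymes in either library, and a ratio of 0.935 (0.784 to 1.12), an interval that does not overlap those of ctrb1, cela1 and ctrl. Reads of ctrb1 per prss2 read were 0.452 in control-MO and 0.206 in Tcf21-MO hearts, and reads of cela1 per prss2 read were 0.207 and 0.0685. Because ctrb1 and cela1 were chosen as lower, these falls restate the choice and are no further support. Carboxypeptidase A, cpa1, had 22 and 19 reads, and the lipase-related genes pnliprp1 and pnliprp2 had 48 and 34 and 50 and 53 reads, each with an interval that included 1. The disulfide isomerase pdia2 had 14 and 8 reads. The enzyme rows cela3b, ctrb2, prss1.2 and prss3 had no read in either library, and the lipase pnlip had 0 and 2.

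**Figure D4:**
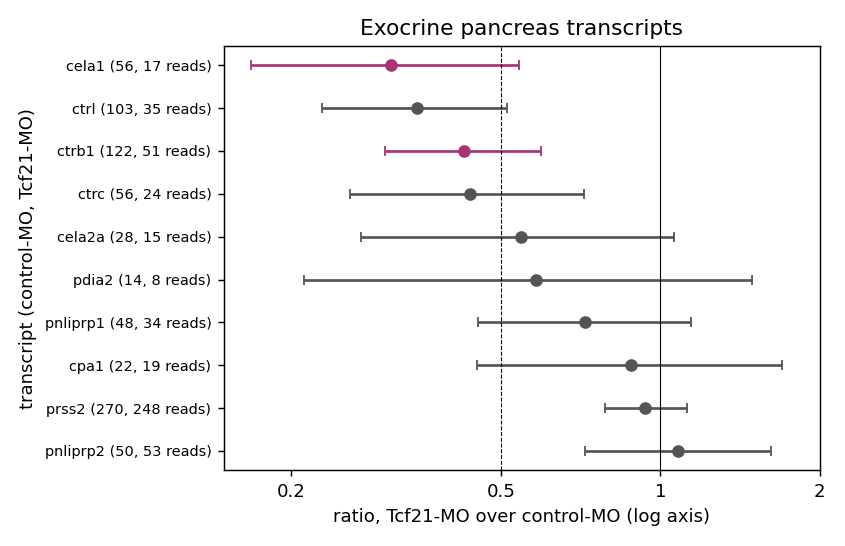
Ratio of Tcf21-MO over control-MO (horizontal log axis) with 95% counting intervals for the 10 exocrine pancreas transcripts past the floor of 20 reads that had a read in each library, with read counts beside each name. The intervals of cela1, ctrl, ctrb1 and ctrc lie below 1, and that of prss2, from 0.784 to 1.12, includes it.

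Several defining factors of the pancreas were near 0 in both libraries. The acinar factor ptf1a had 4 and 7 reads, nr5a2 had 6 and 11, the pancreas and duodenum factor pdx1 had 2 and 1, and both insulin rows had none. Over 12 measured endocrine pancreas genes, 5 passed 20 reads, of which the hormone convertase pcsk2, with 27 and 7 reads, was 3.79-fold lower (1.61 to 10.3), and 0 were 2-fold higher. Their median log2 ratio was -0.45, with 3 of the 5 below 0. Among the 5, the factor gene insm1, with 43 and 24 reads, was 1.76-fold lower (1.04 to 3.03). The factor gene isl1, with 102 and 73 reads, was 1.37-fold lower (1.01 to 1.88). The factor gene nkx6-1, with 8 and 16 reads, had a ratio of 2.04 with an interval that included 1 (0.823 to 5.5). The neuroendocrine gene chga had 333 and 327 reads. All rows of the exocrine list together stood at 46.7 CPM in control-MO and 30 CPM in Tcf21-MO hearts. Without cela1 and ctrb1, which were chosen as lower, the sums were 36.7 and 26.2 CPM.

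Transcripts of gut, liver and blood differed in separate ways beside those of the 5 genes. In the stomach and intestine list, 3 of 10 measured genes passed 20 reads and 2 were 2-fold lower, the brush border peptidase anpep with 51 and 14 reads (3.58-fold, 1.95 to 7) and the foregut factor sox2 with 30 and 11 reads (2.68-fold, 1.30 to 5.92). The other gene was fabp2, with 19 and 8 reads, and the median log2 ratio of the 3 was -1.38. All 3 passed the floor mainly through their control-MO reads, so this median describes only the genes that passed it. The share of 2-fold lower transcripts over all past the floor was 2.40%. The summed level of the stomach and intestine list was 7.95 CPM in control-MO and 2.96 CPM in Tcf21-MO hearts. Under the floor the intestinal factor cdx2 had 11 and 1 reads, a ratio of 0.0926 (0.00215 to 0.637), and the brush border gene vil1 14 and 4. In the other direction, apoa4 had 3 and 8 reads, a ratio of 2.72 (0.652 to 15.9), and alpi.2 and lct.1 each had 0 and 1. No read was counted for cdx1. In the pharynx and thyroid list, 2 genes passed, tbx1 and hhex, with 139 and 124 and 247 and 233 reads and a median log2 ratio of -0.10. The liver list had a median log2 ratio of 0.08 over 11 genes, with 1 of them, the fibrinogen chain fgb, 2.86-fold higher (2.08 to 4) and 0 lower. The transferrin gene tf was represented by its L row, with 217 and 327 reads, and its S row, with 6 and 41 reads, was 6.96-fold higher (2.94 to 20.1). The lowest liver gene was apoa1, with 134 and 73 reads. The defining liver transcript alb had 2 reads in each library in one row and 0 and 1 in the other. Ciliated cell genes had a median of 0.08, with 0 of 10 past 2-fold when each gene was taken by its row with the most reads. For the cilium factor foxj1 that row is a separate copy, foxj1.2, with 32 and 23 reads. The foxj1 S row, with 30 and 13 reads, stood 2.27-fold lower (1.15 to 4.73). The foxj1 L row, with 16 and 20 reads, had a ratio of 1.27 (0.627 to 2.63).

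Red blood cell transcripts were also lower in the Tcf21-MO library. Of 11 erythroid genes, 10 were 2-fold lower, beside 2.40% of all transcripts past the floor, with a median log2 ratio of -1.92. The summed level of the erythroid rows was 30751 CPM in control-MO and 7708 CPM in Tcf21-MO hearts. Whether blood content had a part in the values of the 5 secretory genes was not tested. Over 15 genes of the endoplasmic reticulum and its protein export, 0 were 2-fold higher or lower and the median was -0.03. Their log2 ratios ran from -0.29 for the signal peptidase subunit sec11c to 0.48 for the disulfide isomerase pdia4. The list summed to 5439 CPM in control-MO and 5790 CPM in Tcf21-MO hearts. At such levels a difference confined to a minor cell type could hardly be seen, so nothing is read from it about the cells that made the 5 transcripts.

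Genes near the 5 on their chromosomes were compared next, with gene order taken from the name table. Coding genes without a row were passed over, up to 17 of them on a side of itln1, so some of the genes compared are not direct neighbours. The nearest 2 measured protein-coding genes on each side gave 20 rows, of which 18 passed 20 reads, 1 was 2-fold lower and 0 were higher. Over all transcripts past the floor the shares were 2.40% and 2.67%. The lower one was ctrl, which lies in a cluster with ctrb1 and ctrb2. These genes were named after their values were seen. Next to itln1, rpp30 was 1.29-fold lower (1.11 to 1.51), and next to sftpc the procollagen protease gene bmp1 had a ratio of 1.61 (1.52 to 1.71). The name table lists 6 genes as copies of cela1, of which 1, an S copy, had a row analysed here, and 2 of sftpc, of which the S copy had a row. The L copy of sftpc and the other cela1 copies were not analysed here, and reads from near-identical copies may have been counted in these rows, so the values of cela1 and sftpc are uncertain in that respect.

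Transcripts most like each gene were those nearest in log2 ratio among transcripts within 1.5-fold of its control-MO level, a description over 2 libraries. For itln1, out of 1162 such transcripts, the nearest was the red cell ankyrin gene ank1, which still differed by 1.68 log2 units, and another was the keratin row xk81a1, which the name table lists as a krt12 copy. That row had 1345 and 464 reads and was 2.85-fold lower, with an interval of 2.56 to 3.17. No transcript of like control-MO level thus matched itln1 closely. Since itln1 was chosen for its low ratio, the 4th lowest past the floor, this gap comes with that position and nothing is read from it. For otog the nearest were palmd, jarid2 and the secreted glutathione peroxidase gene gpx3, all within 0.028 log2 units. The nearest to sftpc were aifm3, ankrd11 and sphk1, those to cela1 were cyp2j2, atp13a4 and tnfrsf11b, and those to ctrb1 were gramd1c, jakmip1 and the homeobox gene irx3.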

How the data were processed

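The authors deposited counts of whole reads per RefSeq transcript, not normalized, and, as another kind of value, transcript lengths in bp, per the file headers. CASAVA 1.7, SAMtools 0.1.18.0 and Bowtie2 2.0.0.6 are listed, without roles, per the submitters' processing notes. Build, counting rule, multi-mapping and strand: not given in the sources used here. Another 3 columns of normalized values were not used. Copy endings of row symbols (a hyphen with a or b, a point with 1 or 2) were removed.

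TMM factors from edgeR 4.0.16 (R 4.3.3) scaled the counts. Folds are ratios of scaled counts with 95% exact binomial (Clopper-Pearson) intervals, and RPKM levels have exact Poisson intervals. Both cover counting error of reads only. Reads lacking molecular identifiers can be copies of one molecule, which would make these intervals too narrow. Log2 ratios and list medians had 0.5 counts added. The floor was 20 reads over both libraries, and the row with most reads stood for a symbol. The 2-fold rule also required an interval excluding 1. Python 3.11.15, SciPy 1.17.1 and pandas 2.3.3 were used, and the procedure was tested on simulated data. A name table of assembly version 10.1 held 8315 of 8879 accessions.

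The 5 genes and 12 lists were chosen with earlier results of these data known. Named genes were the 5 genes and their paralogs, all measured skin secretory, lung and exocrine pancreas genes, the 3 nearest transcripts per gene, and the 2 highest and 2 lowest of other lists with at least 50 reads, of which a selection is given. One of the nearest transcripts is not reported here. Some further genes were named with their values in view: pdx1, cdx1, alb and other markers near 0, and epcam, krt12, chga, myh6, sox2, cdx2, vil1, and second rows of foxj1 and tf.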

Additional observations from a re-analysis of the deposited data

How the results depend on the processing

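Each group was 1 library, so nothing could be left out. No paired analysis was possible because each group holds a single library. Of the results recomputed, 320 stayed within the interval of the main value or, for counts, within 1.5 times of it, and 24 did not. Counts that stayed at 0 are among the 320. For lists too short for an interval of the median, the range of their genes was used instead. None of the 5 genes changed direction. Over all settings the log2 ratio ran from -3.73 to -3.35 for itln1, -1.33 to -0.95 for otog, -1.80 to -1.42 for sftpc, -1.70 to -1.32 for cela1 and -1.26 to -0.88 for ctrb1. The upper ends came from scaling to the median ratio of the heart list, an alternative chosen after seeing the data, which moved the median of all transcripts by 0.34. It left 3 of the 5 genes 2-fold lower, with otog at -0.95 and itln1 at -3.35. At a 4-fold threshold 1 of the 5 genes, itln1, was lower.

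Counts of all transcripts were 636 higher and 542 lower at 1.5-fold, and 33 and 34 at 4-fold. A floor of 100 reads left 106 lower. With that floor 2 exocrine pancreas genes, 0 endocrine pancreas genes and 0 stomach and intestine genes were lower, because genes with few reads were left out. With no floor, 4 stomach and intestine genes were lower, and the pharynx and thyroid list had 1 gene higher and a median of 0.03. Taking the 50 most abundant transcripts out of the total raised RPKM levels by construction. Control-MO levels became 126 for itln1, 25.7 for otog, 8.51 for sftpc, 5.74 for ctrb1 and 4.68 for cela1, and Tcf21-MO levels 9.71, 10.5, 2.48 and 2.44 for the first 4. Depth limits cela1, sftpc and ctrb1 most, since their intervals span about 2-fold or more.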
